A study of Mus musculus with 24 samples.

Results

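This report describes 45 genes of the early secretory pathway in cultured mouse vascular smooth muscle cells (VSMCs), out of 24453 genes named in the RNA-seq table. The genes were taken by name: components of the machinery that brings new proteins into the endoplasmic reticulum (ER), glycosylates them there and carries them to and from the Golgi. The cells were primary VSMCs from the thoracic aorta of young adult C57BL/6J mice, grown in serum-containing DMEM and used at low passage, and no genetic change was made in any group. Cholesterol cells received 20 ug/mL of cholesterol complexed with methyl-β-cyclodextrin, a sugar ring that carries sterols in solution, in 0.2% BSA for 24 h or 48 h. Control cells received 0.2% BSA alone for 0 h, 24 h or 48 h. Control cells had no cyclodextrin, so an effect of cholesterol and one of its carrier cannot be told apart. Polyadenylated RNA was sequenced in 3 libraries each of cholesterol 24 h, control 24 h, cholesterol 48 h and control 0 h, and in 2 of control 48 h, whose first replicate was discarded by the authors for low depth. H3K27ac, a histone mark of active promoters and enhancers, was mapped by ChIP-seq in 1 library per condition. The question was how the transcripts of this machinery change when VSMCs are loaded with cholesterol, as occurs in atherosclerotic lesions.

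Proteins bound for secretion or for membranes start with a signal peptide, which the signal recognition particle (SRP) binds and delivers to the SRP receptor on the ER. The Sec61 channel, helped by the TRAP complex, then passes the chain into the ER, where signal peptidase cuts off the signal peptide and oligosaccharyltransferase attaches a preassembled sugar chain to asparagines. Folded cargo leaves in vesicles coated with COPII, cargo receptors collect particular proteins on the way, and COPI vesicles with KDEL receptors return escaped ER residents. VSMCs make collagens, elastin and other matrix proteins, all of which take this route, and many of these genes are known targets of the unfolded protein response, in which XBP1 and ATF6 raise the capacity of the ER.

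The values are normalized RPKM, the deposited reads (tags) per kilobase of gene body, introns included, scaled by the authors to library size and rescaled here by median of ratios. Of the 45 genes, 44 had more than 70 tags in at least 1 library and entered a limma fit of log2(normalized RPKM + 1) over 10763 genes, with p-values adjusted over all of these and called at a threshold of 0.05. The added 1 makes fold changes of low genes smaller than the ratio of their RPKM. The gene not tested was Sec61g, the small gamma subunit of the channel, with 1 to 17 tags per library. Libraries held 7094020 to 7590910 tags in cholesterol 24 h, 6759230 to 7351770 in control 24 h, 3633900 to 4968420 in cholesterol 48 h, 3836760 and 4020100 in control 48 h, and 2726790 to 6994330 in control 0 h. As the table keeps at most 1 tag per position, abundant genes lose more tags in deeper libraries. The highest number of tags per exonic base in any library had a median of 0.405 over the 44 genes and of 0.158 over the genes tested. In control 0 h, the shallowest library, replicate 1, had the highest value of the 3 replicates in 41 of the 44 genes. It did so in 4635 of the 10763 genes tested. The deepest, replicate 3, had the lowest in 40 of the 44, and in 3952 of all genes tested. The part of depth in this was not tested. The summed RPKM of 8 smooth muscle markers was 163 to 189 in cholesterol 48 h and 213 to 216 in control 48 h. Sums for 6 endothelial markers were 0.298 to 0.377 and 0.4 to 0.457. Of 3 endothelial markers tested, 1 was called higher with cholesterol at 24 h and 1 lower at 48 h. Sums for 6 fibroblast markers were 95.1 to 116 and 110 to 112, and 2 of these 6 were tested and not called. Of 4 epithelial markers, 3 had values, with sums of 0.026 to 0.57 and 0.266 to 0.759. The sum over 8 macrophage markers was 18.7 to 19.9 in cholesterol 48 h and 10.5 to 10.7 in control 48 h. The leukocyte gene Ptprc was at 0 in both 48 h groups, Itgam in cholesterol 48 h and Adgre1 in control 48 h, and 6 of the 8 were below the tag minimum. Of 7 smooth muscle markers tested, 3 fell at 48 h, namely Myh11 (-0.59), Cnn1 (-0.57) and Smtn (-0.50). At 24 h, 2 of them fell, namely Myh11 (-0.38) and Lmod1 (-0.36), and the smooth muscle sum was 139 to 146 in cholesterol and 168 to 178 in control cells. The macrophage sum at 24 h was 11.6 to 12.4 in cholesterol and 7.06 to 9.6 in control cells, and Lgals3 rose (0.62). Of the 2 macrophage markers tested, Lgals3, which VSMCs also express, rose to 10.4 RPKM in cholesterol 48 h, against 4.04 in control 48 h, and Csf1r rose to 0.517, against 0.338. The part of these markers in the results below was not tested. In bulk RNA, fewer cells of a type and less RNA per cell cannot be told apart.

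After 48 h of cholesterol, 9 of the 44 genes were higher than in control cells and none was lower. They were 4 of the 5 signal peptidase genes (Spcs3, Spcs2, Sec11a and Sec11c), the COPII coat gene Sec23b, the TRAP subunit Ssr2, the KDEL receptor Kdelr3, the SRP receptor Srpr and the cargo receptor Lman1. The rises were modest, with log2 fold changes of 0.17 to 0.57. The 9 genes are 20.5% of those tested, beside 13.2% of all genes tested that were higher and 13.7% that were lower. The median log2 fold change of the 44 genes was 0.12, against 0.00 over all genes tested. The change lay above 0 in 33 of the 44, beside 5369 of the 10763 genes tested. In 22 of the 44, all 3 cholesterol libraries lay above both control libraries, and in 3 all lay below them, beside 22.5% and 23.8% of all genes tested. Before adjustment, 15 genes were higher and 1 was lower at p under 0.05 by limma, beside 2041 and 1987 of the 10763 genes tested.

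The count rests on few libraries. It was 3 without replicate 2 of control 48 h (Spcs2, Spcs3 and Sec23b) and 4 without replicate 3. Without replicate 1 of control 0 h, a shallow library that enters only the shared estimate of spread, it was 14. Over all genes tested, 1623 were higher without that replicate, against 1424 with it. The authors left that replicate out of their comparison with in vivo cells, as it did not cluster with its group. It was kept here. Spcs2, Spcs3 and Sec23b were called under every one of the 27 alternatives that was run.

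After 24 h of cholesterol, none of the 44 genes was higher and none was lower by limma, beside 3.03% and 3.34% of all genes tested. None reached p under 0.05 by limma before adjustment, beside 993 higher and 1033 lower of the 10763 genes tested. Voom on recovered tags also called none, while a fit with array weights called Kdelr3, Sec23b and Sec24a higher and Stt3b lower. That fit called 1412 genes higher and 1552 lower of the 10763 tested, larger shares than 3 and 1 of 44. Log2 fold changes ran from -0.15 (Stt3b) to 0.11 (Sec61b), with a median of 0.01. They lay above 0 in 24 of 44, beside 5178 of the 10763 genes tested. The widest 95% intervals reached from -0.30 to 0.33. All 3 cholesterol libraries lay above all 3 controls in 11 genes and below them in 4, beside 18.9% and 22.5% of all genes tested. The effect at 48 h exceeded that at 24 h in 3 genes and was lower in none, beside 2.77% and 3.6% of all genes tested. These 3 were Spcs3, Spcs2 and Sec23b. The count of differences was 1 (Spcs2) without replicate 2 of control 48 h, and 5 without replicate 1 of control 0 h. It was also 5 with tags corrected for the limit of 1 tag per position. That correction was chosen after seeing the data and also used exonic length. Over all genes tested, larger effects numbered 298, and 378 without replicate 1 of control 0 h and 346 with the correction. The plot of effects at both times shows Spcs3, Spcs2 and Sec23b standing to the right at 48 h.

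**Figure D1:**
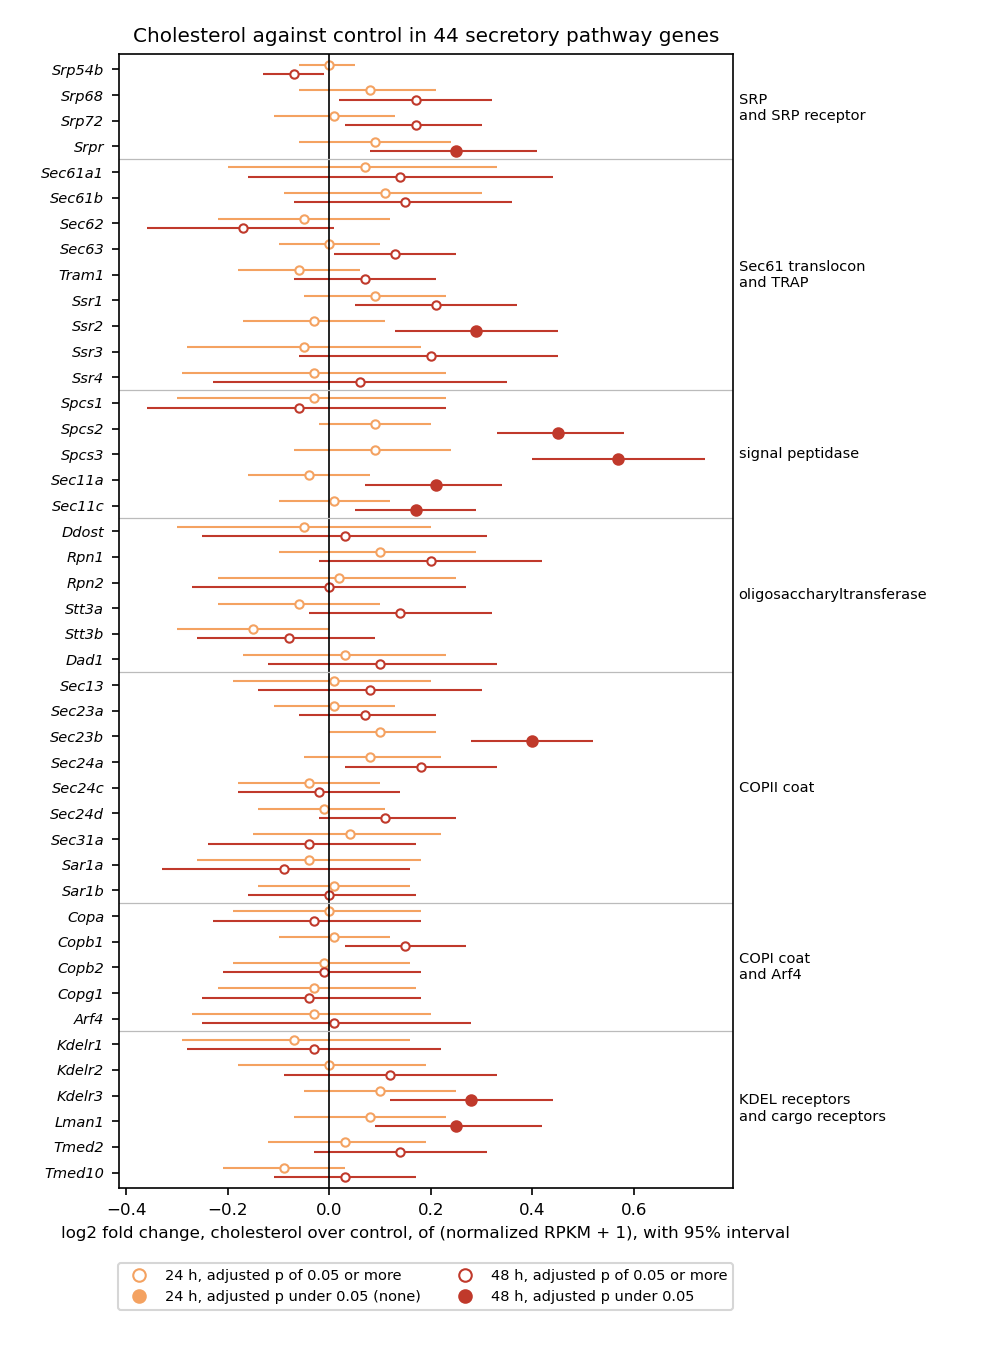
Log2 fold change of (normalized RPKM + 1), cholesterol over control, at 24 h (orange) and 48 h (red) for the 44 genes tested, grouped by role, with 95% intervals and filled points where limma's adjusted p was under 0.05. All 24 h points are open, and the 9 filled points at 48 h all lie above 0, from 0.17 (Sec11c) to 0.57 (Spcs3).

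The promoters of some of these genes are shown because the unfolded protein response acts through short DNA motifs near the start site. RefSeq windows (GRCm38.p6, the assembly of mm10) of 250 bases before to 50 after the start were matched by symbol for 36 of the 45 genes. Those of Srp68, Sec61a1, Tram1, Ssr2, Spcs3, Sec11c, Kdelr2, Lman1 and Tmed2 are not shown. The window matched to Srp54b (chr12:55154854-55155153) lies away from the start of the transcript whose RPKM is given (55230168). Both strands were searched. GCCACGT, the core bound by XBP1, was present in 12 of the 36 genes (33.3%), against 4.9% of genes tested and 2.95% of all genes with a window. TGACGTGG, the UPR element, was present in 5 of the 36 (13.9%), against 1.09% and 0.71%. On 1 strand the 2 motifs can overlap, since TGACGTGG followed by C contains the reverse complement of GCCACGT. The stretches below run from 120 bases before to 30 after the start, with matches to either motif in capitals, for the pair of called genes with large rises that have a window (Spcs2 and Sec23b), for Kdelr3, a called gene with both motifs, and for Sec24d and Sec23a, genes with both motifs that were not called. Spcs2 is at chr7:99858854-99859003 on the minus strand, Sec23b at chr2:144556109-144556258 on the plus strand, Kdelr3 at chr15:79516288-79516437 on the plus strand, Sec24d at chr3:123267376-123267525 on the plus strand and Sec23a at chr12:59011988-59012137 on the minus strand.
Spcs2: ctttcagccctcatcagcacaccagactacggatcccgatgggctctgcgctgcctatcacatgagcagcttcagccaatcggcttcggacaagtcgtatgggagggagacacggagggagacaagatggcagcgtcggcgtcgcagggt
Sec23b: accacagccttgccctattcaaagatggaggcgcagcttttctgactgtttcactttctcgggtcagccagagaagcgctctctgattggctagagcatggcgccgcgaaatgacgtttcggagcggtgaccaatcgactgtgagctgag
Kdelr3: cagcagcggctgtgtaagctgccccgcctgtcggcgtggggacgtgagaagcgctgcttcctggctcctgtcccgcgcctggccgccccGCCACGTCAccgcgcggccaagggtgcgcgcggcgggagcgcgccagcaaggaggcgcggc
Sec24d: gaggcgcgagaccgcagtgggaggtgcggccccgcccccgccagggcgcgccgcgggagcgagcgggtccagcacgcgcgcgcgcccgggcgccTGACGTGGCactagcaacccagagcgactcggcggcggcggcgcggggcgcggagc
Sec23a: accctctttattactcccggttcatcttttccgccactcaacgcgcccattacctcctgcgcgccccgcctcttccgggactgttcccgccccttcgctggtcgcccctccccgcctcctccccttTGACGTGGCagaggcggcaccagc
The Sec23b stretch is at the start of its longer transcripts (144556229), not at that of the transcript whose RPKM is given (144564899). Neither motif was found in the window of Spcs2 or in either window of Sec23b. Kdelr3, Sec24d and Sec23a hold the 2 overlapping motifs, starting 31 and 26 bases before the start and 7 bases after it. Of the 5 called genes with a window, only Kdelr3 had GCCACGT. The 12 genes with it, namely Sec63, Ssr1, Ssr3, Spcs1, Sec13, Sec23a, Sec24c, Sec24d, Sec31a, Sar1a, Copg1 and Kdelr3, moved by 0.08 at the median at 48 h (log2 scale), and the 23 tested genes whose window lacks it by 0.06. The longer ER stress element (ERSE), ERSE-II and the motif TGACGTCA were in none of the 36 windows, beside 0.18%, 0.1% and 3.73% of genes tested. These are CCAAT, 9 bases and CCACG for ERSE, and ATTGG, 1 base and CCACG for ERSE-II. The C/EBP-ATF element (TGATG, 1 base and AA) was in the window of Kdelr1 alone, beside 2.47% of genes tested. A match describes the letters only, and no match says nothing of a factor.

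**Figure D2:**
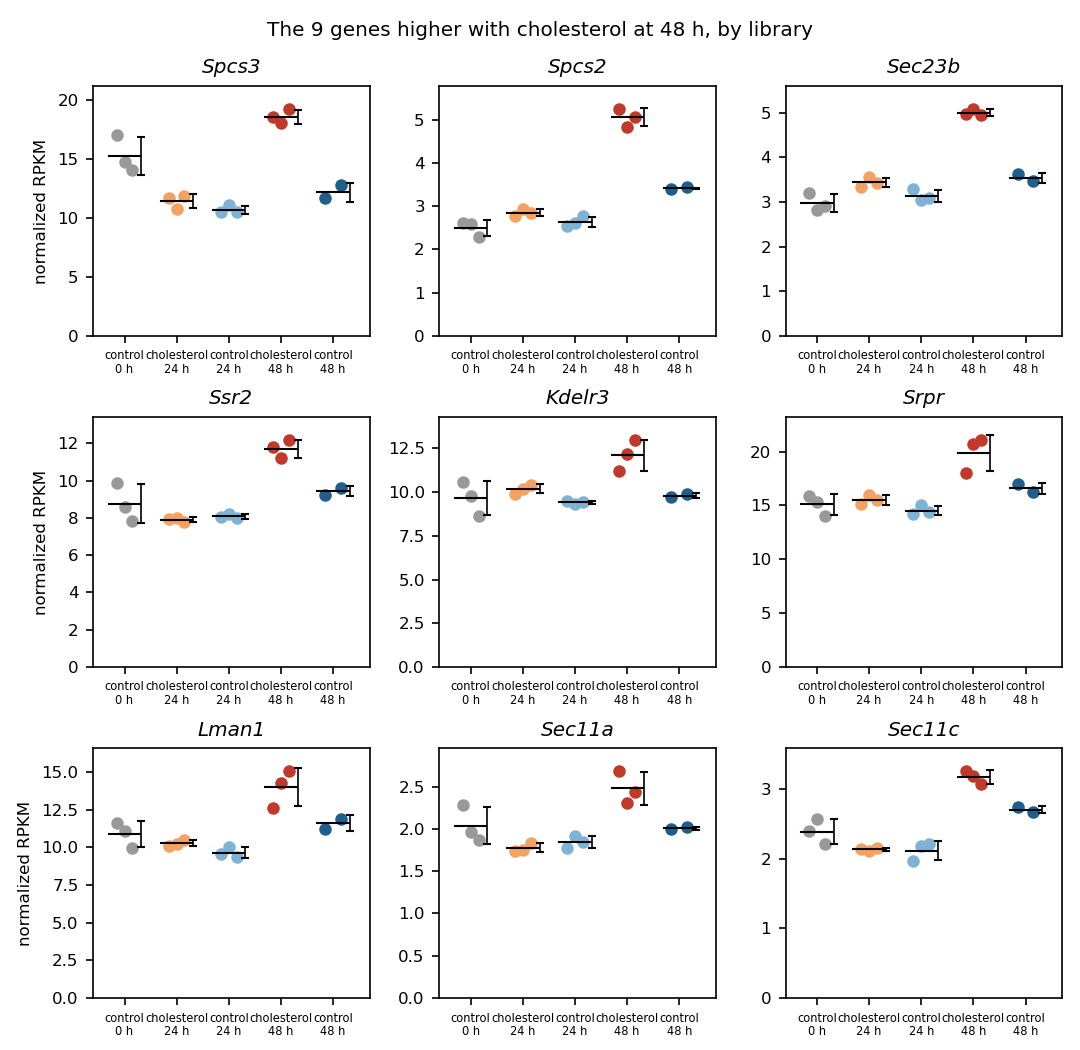
Normalized RPKM of the 9 genes higher with cholesterol at 48 h in each library (points), with the group mean (line) and SD (bars). Vertical axes start at 0 and differ between genes. In every panel the 3 cholesterol 48 h libraries lie above both control 48 h libraries, while the 24 h groups lie close together.

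Signal peptidase had the largest rises. Its genes encode the catalytic subunits Sec11a and Sec11c, which stand in for each other in separate complexes, and the accessory subunits Spcs1, Spcs2 and Spcs3, and the yeast counterpart of Spcs3 is needed for cleavage. Of the 5 genes, 4 rose at 48 h. Spcs3 (NM_029701, chr8:54520433-54529998) had 18.6, 18.1 and 19.3 RPKM in cholesterol 48 h, against 11.7 and 12.8 in control 48 h. The groups did not overlap, and the cholesterol libraries also lay above the control 0 h libraries (17.1, 14.8 and 14.1). The log2 fold change was 0.57 ± 0.0795 (SE, adjusted p = 0.000144, limma), a ratio of means of 1.52. At 24 h the gene had 11.7, 10.8 and 11.9 RPKM in cholesterol and 10.5, 11.1 and 10.5 in control cells. These groups overlapped, and the change was 0.09 ± 0.0711 (adjusted p = 0.583, limma). The difference between times was 0.48 ± 0.107 (adjusted p = 0.0145, limma, and 0.0852 without replicate 2 of control 48 h).

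Spcs2 (NM_025668, chr7:99837569-99858883, minus strand) had 5.25, 4.83 and 5.05 RPKM in cholesterol 48 h, against 3.4 and 3.43 in control 48 h. The groups stood well apart, with a log2 fold change of 0.45 ± 0.0571 (adjusted p = 5.76e-05, limma) and a ratio of means of 1.48. At 24 h it had 2.78, 2.94 and 2.84 RPKM in cholesterol and 2.53, 2.6 and 2.77 in control cells. The 24 h cholesterol libraries were just above the controls, but the change of 0.09 ± 0.051 did not pass the test (adjusted p = 0.421, limma). The effect at 48 h was larger by 0.37 ± 0.0765 (adjusted p = 0.0107, limma). Levels were also given as gene-body tags, introns included, divided by exonic length (tags per kilobase of exon) and scaled to library size. As tags in introns are counted, the order of different genes on this scale is uncertain. The 5 genes ran from 25.8 (Spcs2) to 65.6 (Spcs1) in control 48 h.

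The catalytic subunits moved less. Sec11a had 2.69, 2.31 and 2.44 RPKM in cholesterol 48 h, against 2.0 and 2.02 in control 48 h. Sec11c had 3.27, 3.19 and 3.08 RPKM in cholesterol 48 h, against 2.75 and 2.68 in control 48 h. For both genes every cholesterol library lay above both controls. The log2 fold change of Sec11a was 0.21 ± 0.0624 (adjusted p = 0.0245, limma) and that of Sec11c was 0.17 ± 0.0557 (adjusted p = 0.0343, limma). Both calls were lost without either control library at 48 h or without replicate 1 of cholesterol 48 h, and that of Sec11c also without replicate 2 of cholesterol 48 h or replicate 1 or 3 of cholesterol 24 h. At 24 h, Sec11a had 1.74, 1.75 and 1.84 RPKM in cholesterol and 1.78, 1.92 and 1.85 in control cells, and Sec11c had 2.14, 2.12 and 2.16 in cholesterol and 1.97, 2.18 and 2.22 in control cells. The 24 h groups overlapped for each. Spcs1, a small accessory subunit, had 36.1, 30.8 and 36 RPKM in cholesterol 48 h, against 37.0 and 34.7 in control 48 h. Its groups overlapped, with a log2 fold change of -0.06 and a 95% interval of -0.36 to 0.23.

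In the COPII coat, which buds vesicles from the ER, 1 of 9 genes rose and the others did not pass the test. Sec23 and Sec24 form the inner coat, Sec13 and Sec31 the outer cage, and the GTPases Sar1a and Sar1b start assembly. Sec23b (NM_001281816, chr2:144564899-144590753), whose loss causes a congenital anaemia in humans, had 4.97, 5.09 and 4.94 RPKM in cholesterol 48 h, against 3.62 and 3.47 in control 48 h. The groups did not overlap, with a log2 fold change of 0.40 ± 0.0541 (adjusted p = 0.000112, limma) and a ratio of means of 1.41. At 24 h it had 3.34, 3.56 and 3.42 RPKM in cholesterol and 3.29, 3.04 and 3.09 in control cells. The 24 h cholesterol libraries lay above the controls, but the change of 0.10 ± 0.0483 did not pass the test (adjusted p = 0.276, limma). The effect at 48 h exceeded it by 0.30 ± 0.0725 (adjusted p = 0.0251, limma). That last call was lost without any of 6 single libraries, with adjusted p up to 0.0978.

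Its paralogue Sec23a had 3.45, 3.85 and 3.94 RPKM in cholesterol 48 h, against 3.5 and 3.52 in control 48 h, so that the groups overlapped (log2 fold change 0.07, 95% interval -0.06 to 0.21). At 24 h Sec23a had 3.39, 3.26 and 3.44 RPKM in cholesterol and 3.29, 3.41 and 3.28 in control cells. Per kilobase of exon, intron tags included, Sec23b stood at 53.4 tags in cholesterol 48 h and 37.9 in control 48 h. Sec23a stood at 48.9 and 45.8. Sec23b was the higher of the pair in cholesterol 48 h and the lower in control 48 h, and the order was not tested.

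The cargo-binding Sec24 paralogues spread more between libraries. Sec24a had 1.24, 1.69 and 1.56 RPKM in cholesterol 48 h, against 1.16 and 1.24 in control 48 h. Sec24d had 1.82, 2.36 and 2.13 in cholesterol 48 h, against 1.89 and 1.83 in control 48 h. Sec24c had 9.33, 11.1 and 11.2 in cholesterol 48 h, against 10.4 and 10.9 in control 48 h. Replicate 1 of cholesterol 48 h was the lowest of its group in all 3, and the groups overlapped or touched. Log2 fold changes were 0.18 for Sec24a, 0.11 for Sec24d and -0.02 for Sec24c (adjusted p = 0.0736, 0.218 and 0.874, limma). At 24 h, Sec24a had 1.5, 1.49 and 1.54 RPKM in cholesterol and 1.37, 1.36 and 1.37 in control cells, groups that did not overlap, with a change of 0.08 (adjusted p = 0.534, limma). Sec24d had 1.84, 1.81 and 1.85 in cholesterol 24 h and 1.76, 1.91 and 1.92 in control 24 h, and Sec24c had 9.49, 9.82 and 9.63 in cholesterol 24 h and 9.96, 10.2 and 9.57 in control 24 h. Both pairs of groups overlapped.

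Sar1a had 20.7, 19.5 and 22.5 RPKM in cholesterol 48 h, against 22.0 and 22.4 in control 48 h. Sar1b had 2.75, 2.37 and 2.54 in cholesterol 48 h, against 2.26 and 2.84 in control 48 h. The groups of both overlapped, with log2 fold changes of -0.09 (95% interval -0.33 to 0.16) and 0.00 (-0.16 to 0.17). At 24 h, Sar1a had 16.3, 17.4 and 17.1 RPKM in cholesterol and 17.1, 17.8 and 17.3 in control cells, and Sar1b had 2.06, 2.02 and 2.14 in cholesterol and 2.04, 2.06 and 2.04 in control cells. These groups overlapped too. The cage genes Sec13 and Sec31a had log2 fold changes of 0.08 and -0.04 at 48 h, and neither passed the test. Sar1b and Sec24a lie next to each other in opposite directions on chromosome 11 (starts at 51763663 and 51756834).

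**Figure D3:**
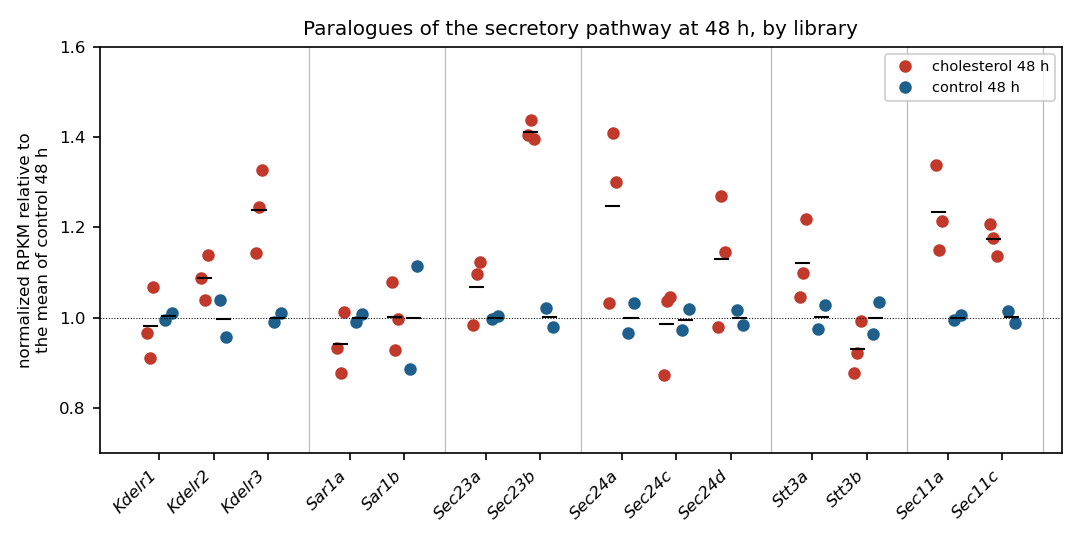
Normalized RPKM of paralogous genes in each library at 48 h, divided by the mean of control 48 h, with cholesterol (red) left of control (blue) and lines at the group means. The vertical axis starts above 0. Within the KDEL receptor and Sec23 sets, Kdelr3 and Sec23b lie above their controls while Kdelr1 and Sec23a overlap them.

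KDEL receptors retrieve ER chaperones from the Golgi. Kdelr3 (NM_134090, chr15:79516408-79527739) had 11.2, 12.2 and 13 RPKM in cholesterol 48 h, against 9.7 and 9.9 in control 48 h. The groups did not overlap, with a log2 fold change of 0.28 ± 0.0755 (adjusted p = 0.0139, limma). At 24 h it had 9.89, 10.2 and 10.4 RPKM in cholesterol and 9.49, 9.32 and 9.41 in control cells, again without overlap, and a change of 0.10 that did not pass the test (adjusted p = 0.49, limma). Kdelr1 had 17.1, 16.1 and 18.9 RPKM in cholesterol 48 h, against 17.6 and 17.9 in control 48 h. Kdelr2 had 11.0, 10.5 and 11.5 in cholesterol 48 h, against 10.5 and 9.66 in control 48 h. The groups of both overlapped, with changes of -0.03 (95% interval -0.28 to 0.22) and 0.12 (-0.09 to 0.33). At 24 h, Kdelr1 had 12.6, 13.4 and 13.3 RPKM in cholesterol and 13.6, 14.3 and 13.6 in control cells, which were higher in every library (log2 fold change -0.07, adjusted p = 0.815, limma). Kdelr2 had 7.67, 8.3 and 7.85 in cholesterol 24 h and 7.71, 7.86 and 8.16 in control 24 h, which overlapped. Per kilobase of exon, intron tags included, Kdelr1 was the highest of the 3 in control 48 h (127 tags), followed by Kdelr2 (98.7) and Kdelr3 (78.5).

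Of the cargo receptors, Lman1 (ERGIC-53), which ships clotting factors and other glycoproteins with its partner Mcfd2, rose at 48 h. It had 12.6, 14.3 and 15.1 RPKM in cholesterol 48 h, against 11.2 and 11.9 in control 48 h. The groups did not overlap (log2 fold change 0.25 ± 0.0776, adjusted p = 0.0261, limma). At 24 h it had 10.1, 10.2 and 10.5 RPKM in cholesterol and 9.56, 10.0 and 9.36 in control cells, again without overlap, and the change of 0.08 did not pass the test (adjusted p = 0.618, limma). Tmed2 and Tmed10, p24 proteins that sort GPI-anchored and other cargo, had log2 fold changes of 0.14 and 0.03 and did not pass the test. The calls of Kdelr3 and Lman1 were both lost without either control library at 48 h, and that of Lman1 also without replicate 2 or replicate 3 of cholesterol 48 h.

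In the targeting machinery, Srpr, the alpha subunit of the SRP receptor, was the called gene of 4. It had 18, 20.7 and 21.1 RPKM in cholesterol 48 h, against 17 and 16.2 in control 48 h. The groups did not overlap, with a log2 fold change of 0.25 ± 0.0762 (adjusted p = 0.0278, limma, lost without either control library at 48 h or without replicate 2 or 3 of cholesterol 48 h). At 24 h it had 15.1, 16.0 and 15.5 RPKM in cholesterol and 14.2, 15 and 14.4 in control cells (0.09 ± 0.0682, adjusted p = 0.55, limma). The SRP proteins Srp68 and Srp72 bind each other on the particle. They had changes of 0.17 and 0.17 at 48 h (adjusted p = 0.0907 and 0.0607, limma), with no overlap between groups. Srp54b, a copy of the subunit that binds signal peptides, stood at 0.272 to 0.3 RPKM in cholesterol 48 h and at 0.331 and 0.373 in control 48 h (-0.07, adjusted p = 0.0779, limma). Its reads can be shared with near-identical copies of the gene, so its values are uncertain.

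Of the 9 tested genes of the Sec61 channel and the TRAP complex, 1 rose. Ssr2, the beta subunit of TRAP, had 11.8, 11.2 and 12.2 RPKM in cholesterol 48 h, against 9.23 and 9.62 in control 48 h. The groups stood apart (log2 fold change 0.29 ± 0.0733, adjusted p = 0.00949, limma, and 0.0752 without replicate 2 of control 48 h). At 24 h it had 7.95, 8.01 and 7.78 RPKM in cholesterol and 8.07, 8.23 and 7.98 in control cells, which overlapped (-0.03 ± 0.0655, adjusted p = 0.891, limma). The difference between times of 0.32 ± 0.0983 missed the threshold (adjusted p = 0.0773, limma). The other TRAP genes Ssr1, Ssr3 and Ssr4 had log2 fold changes of 0.21, 0.20 and 0.06 at 48 h. Sec61a1, the pore itself, and Sec61b, its beta subunit, had changes of 0.14 and 0.15. Sec63 and Tram1, which assist the channel, had 0.13 and 0.07. Sec62, which acts on short secretory proteins and on ER turnover, was at -0.17, with 7.66, 7.32 and 8.38 RPKM in cholesterol 48 h, below both control 48 h libraries (8.68 and 9.11). None of these 8 passed the test, and Sec62 was called lower only without replicate 1 of control 0 h. Sec61a1 had the highest level per kilobase of exon, intron tags included, of the 44 genes in control 48 h (158 tags). Sec61g had 0.452, 0.252 and 0.417 RPKM in cholesterol 48 h, against 0.0371 and 0.197 in control 48 h, values of a few tags each. It was called higher where the tag minimum was lowered or dropped.

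No gene of oligosaccharyltransferase passed the test at either time. Ddost, Rpn1, Rpn2 and Dad1 are shared subunits, and Stt3a and Stt3b are the alternative catalytic subunits, which act during and after translocation. Stt3a had 6.93, 7.29 and 8.08 RPKM in cholesterol 48 h, against 6.46 and 6.81 in control 48 h. Stt3b had 4.18, 4.39 and 4.73 in cholesterol 48 h, against 4.59 and 4.93 in control 48 h. The cholesterol libraries lay above the controls for Stt3a (log2 fold change 0.14, adjusted p = 0.236, limma) and overlapped them for Stt3b (-0.08, adjusted p = 0.487, limma). At 24 h, Stt3a had 5.11, 5.27 and 5.18 RPKM in cholesterol and 5.27, 5.47 and 5.6 in control cells, and Stt3b had 3.46, 3.6 and 3.51 in cholesterol and 4.01, 4.07 and 3.96 in control cells. For Stt3b every cholesterol library at 24 h was below every control, with a change of -0.15 ± 0.0715 (adjusted p = 0.283, limma). It was called lower when only the 2 groups compared were fitted. Rpn1, Dad1, Ddost and Rpn2 had changes of 0.20, 0.10, 0.03 and 0.00 at 48 h.

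Of the COPI coat and Arf4, whose products return vesicles from the Golgi, none of 5 genes passed the test at 48 h. Copb1 was at 0.15 (adjusted p = 0.0712, limma), with 4.9, 4.68 and 5.06 RPKM in cholesterol 48 h, above both control 48 h libraries (4.24 and 4.37). Arf4, Copb2, Copa and Copg1 were at 0.01, -0.01, -0.03 and -0.04. The intervals of the 35 genes not called at 48 h reached at most from -0.36 to 0.45.

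**Figure D4:**
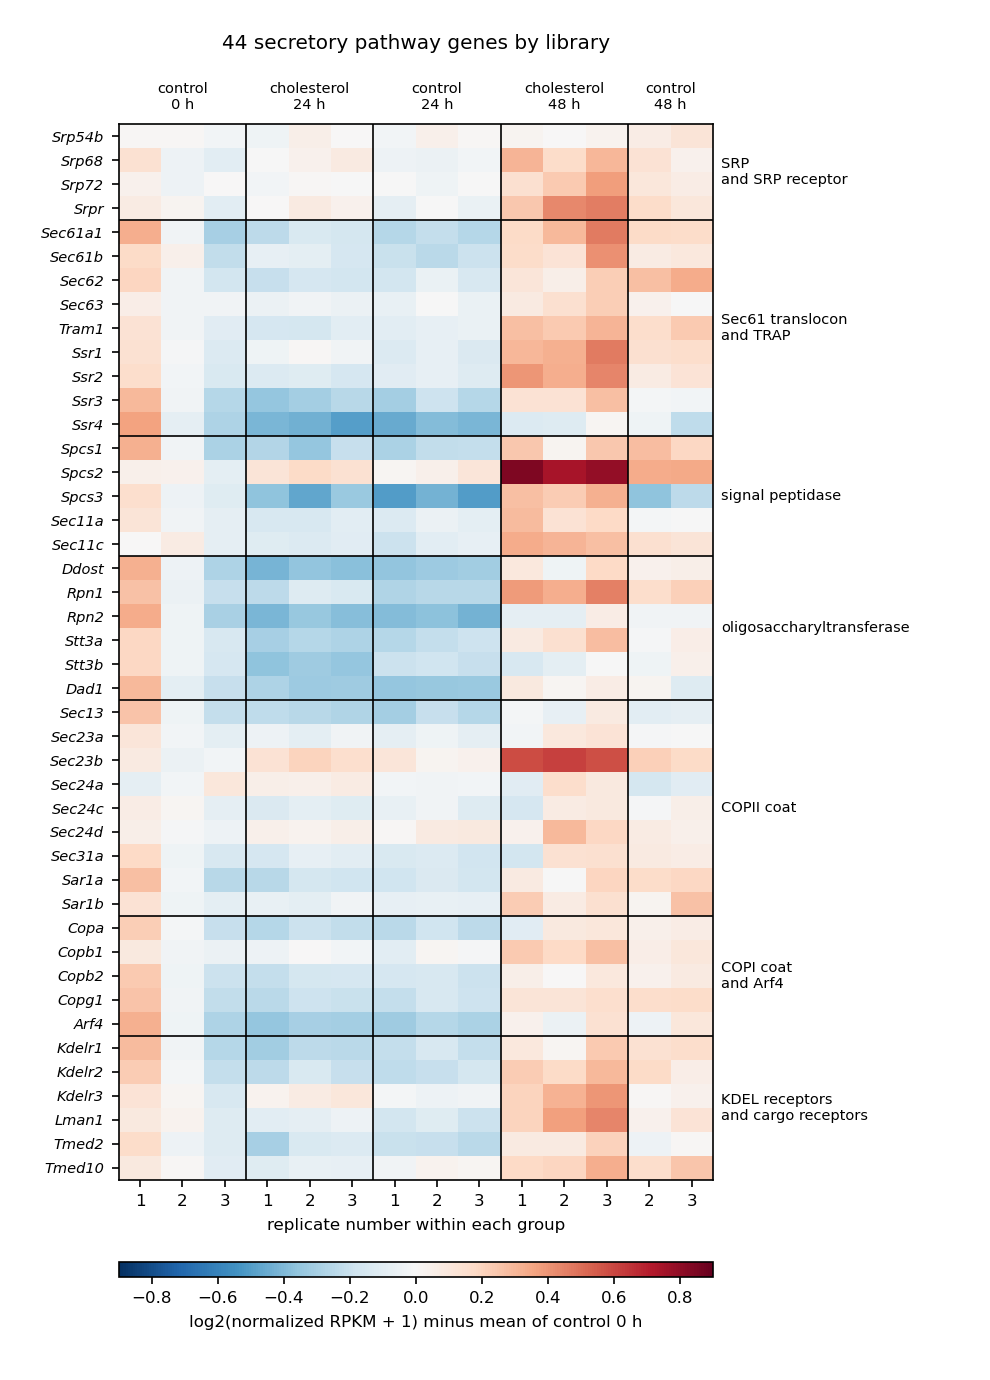
Log2(normalized RPKM + 1) of each of the 44 genes in every library, minus the mean of its control 0 h libraries, from blue (lower) to red (higher), with genes in rows by role and libraries in columns by group. Spcs2 and Sec23b are deep red in the 3 cholesterol 48 h columns, and the first control 0 h column is red in most rows.

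In cholesterol-loaded cells, 35 of the 44 genes were higher at 48 h than at 24 h and none was lower, beside 14.8% and 12.9% of all genes tested. The largest was Spcs3, at 0.66. The 48 h libraries held fewer tags (3633900 to 4968420) than the 24 h libraries (7094020 to 7590910). Over 10658 genes, the change from 24 h to 48 h correlated with the highest number of tags per exonic base (Spearman 0.44). Within the 44 genes the correlation was 0.17. The median of that number was 0.405 in the 44 genes and 0.158 over all, so the shares above are not a like background. The part of depth was not tested. With tags corrected for 1 tag per position, 34 were higher, and without replicate 3 of cholesterol 48 h, 22. The correction took tags as spread evenly over both strands of the exons, although tags in introns were counted. Its count therefore does not measure the part of depth. On RPKM as deposited, 37.1% of all calls in this comparison were higher, against 53.4% after rescaling, and 34 of the 44 genes were higher. The 9 not called were Srp54b, Sec13, Sec23a, Sec24a, Sec24c, Sec24d, Sec31a, Sar1a and Copb2, of which all but Srp54b and Copb2 belong to COPII. The same difference in control medium, computed without a test after the values were seen, was above 0 in 42 of 44 genes. Its median was 0.23, against 0.34 in cholesterol-loaded cells. Over all genes tested, these medians were -0.01 and 0.0.

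In control medium alone, 4 genes were lower at 24 h than at 0 h and none was higher, beside 4.86% and 4.99% of all genes tested. They were Spcs3 (-0.47), Ssr4 (-0.42), Rpn2 (-0.40) and Dad1 (-0.34). Over 10658 genes, the change from 0 h to 24 h correlated at -0.46 (Spearman) with the highest number of tags per exonic base. Within the 44 genes the correlation was -0.53. The part of depth was not tested. The count of lower genes was 23 without replicate 3 of control 0 h and 1 without replicate 1, libraries at the extremes of depth, and on RPKM as deposited 68.8% of all calls were higher, against 50.7% after rescaling. At 48 h against 0 h, 5 genes were higher and 1 was lower, beside 7.81% and 8.98%. The higher ones were Spcs2 (0.34), Sec62 (0.30), Tmed10 (0.20), Sec23b (0.19) and Srp54b (0.09), and the lower one was Spcs3 (-0.30). The count of higher genes was 15 without replicate 1 of control 0 h and 1 without replicate 2 or replicate 3 of control 0 h, or without either library of control 48 h. Without replicate 3 of cholesterol 24 h or of control 24 h it was 3. Without replicate 2 of control 48 h none was lower. Without control 24 h replicate 1, 2 or 3, 1 gene was lower at 24 h, as it was without any 1 cholesterol 24 h library or without replicate 2 of control 0 h, and 2 were without either control 48 h library. Over all genes tested, 303 were lower at 24 h without replicate 1 of control 0 h, against 523 with it. At 48 h, 1154 were higher without that replicate, against 841 with it. The comparisons with 0 h share the control libraries of the cholesterol contrasts. Spcs3 was lower over time in control medium and higher with cholesterol at 48 h, while Spcs2 and Sec23b were higher in both.

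H3K27ac regions lay within 1 kb of the start of most of the 45 genes. They were at 42 in cholesterol 24 h and 42 in control 24 h, at 43 in cholesterol 48 h and 43 in control 48 h, and at 37 in control 0 h. Over all genes tested, the shares with a region were 91.7% and 91.2% at 24 h, 87.9% and 89.7% at 48 h, and 84.1% in control 0 h, a library with 16.94% of its tags in regions, against 37.35% to 43.77% in the others. With 1 library per condition there is no test. The ratio of region density (tags per kilobase of region), cholesterol over control, had a median of 1.09 over 41 genes at 24 h and of 1.02 over 43 genes at 48 h, beside 1.08 and 1.00 over all genes tested. Ratios ran from 0.69 (Arf4) to 1.87 (Kdelr3) at 24 h and from 0.62 (Ssr1) to 1.81 (Sec11c) at 48 h. Region lengths differed at these extremes. By total tags in the region, the ratio was 1.28 for Arf4 and 1.23 for Kdelr3 at 24 h, and 0.94 for Ssr1 and 0.59 for Sec11c at 48 h, so that Arf4 and Sec11c changed direction. Over all genes tested, the 5th and 95th percentiles were 0.78 and 1.47 at 24 h and 0.71 and 1.42 at 48 h.

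Spcs3 had 58.4 tags per kilobase in cholesterol 24 h and 41.0 in control 24 h, and 52.8 in cholesterol 48 h and 49.6 in control 48 h. Spcs2 had 44.7 in cholesterol 24 h and 36 in control 24 h, and 48.2 in cholesterol 48 h and 45 in control 48 h. Kdelr3 had 103 in cholesterol 24 h and 55.2 in control 24 h, and 82.0 in cholesterol 48 h and 74.2 in control 48 h. For these 3 genes the density ratios were 1.42, 1.24 and 1.87 at 24 h and 1.07, 1.07 and 1.11 at 48 h. Ratios of total tags were 1.42, 1.25 and 1.23 at 24 h and 0.84, 0.47 and 1.00 at 48 h, and the Spcs2 region was 627 bases long in cholesterol 48 h and 1437 in control 48 h. Sec11c, at 68.5 in cholesterol 48 h and 37.9 in control 48 h, had a density ratio of 1.45 at 24 h. Its region was 979 bases long in cholesterol 48 h and 3009 in control 48 h. The ratio of its total tags was 1.18 at 24 h and 0.59 at 48 h. Of the other called genes with regions at both times, Srpr had density ratios of 1.04 at 24 h and 0.65 at 48 h, Lman1 of 1.23 and 1.02, and Sec11a of 1.32 and 0.99. Sec23b had no region at the start of the transcript analysed (NM_001281816). The start of its longer transcripts (chr2:144556229) was looked at after this was seen. There it had 89.7 tags per kilobase in cholesterol 24 h and 80.8 in control 24 h, and 66 in cholesterol 48 h and 72.7 in control 48 h. Srp54b had no region in any list, Ssr2 none in cholesterol 24 h and Dad1 none in control 24 h. Requiring 8 times the input in place of 4 left regions at 28 genes in cholesterol 24 h, 26 in control 24 h, 18 in cholesterol 48 h and 19 in control 48 h.

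**Figure D5:**
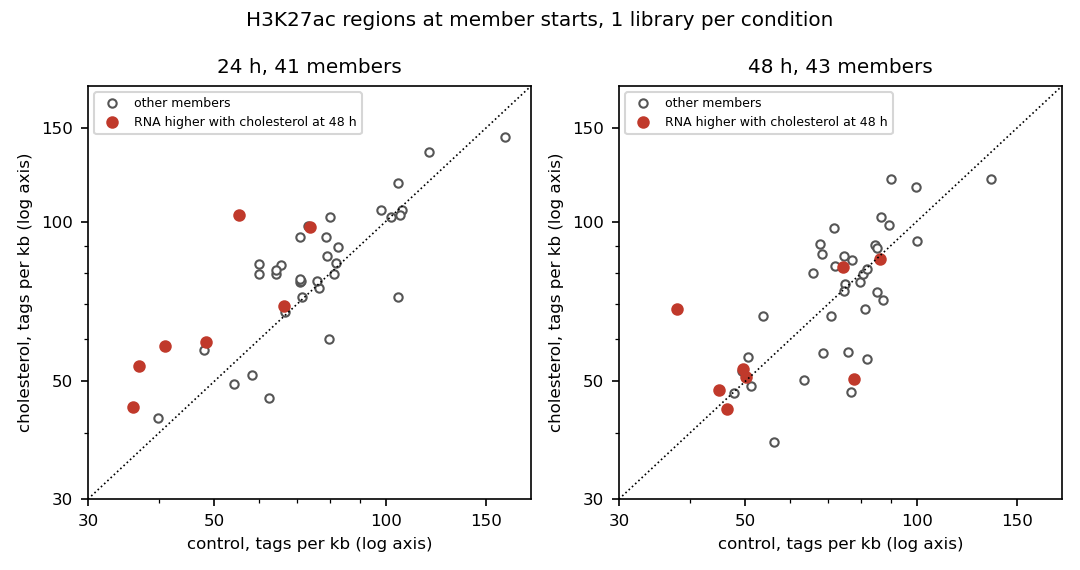
H3K27ac tags per kilobase of region at the starts of the genes, cholesterol (vertical) against control (horizontal) at 24 h (left) and 48 h (right), on log axes, with genes called at 48 h in red and the dotted line where both are equal. At 24 h the 7 red points lie above the line, and at 48 h 8 red points lie on both sides of it. At 24 h, 31 of all 41 points lie above it, beside 6412 of 9564 genes tested. At 48 h, 22 of 43 do, beside 4539 of 9100.

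Other genes of the same route were counted from lists chosen beside the 45. Of 96 tested, 16 were higher and 2 lower with cholesterol at 48 h, and 1 was higher and 1 lower at 24 h. The 16 are 16.7% of the genes tested, near the 13.2% of all genes tested that were higher, so the counts of the lists are given as a description. Of the genes that build the sugar chain on its lipid carrier, 7 of 22 were higher and none lower at 48 h (31.8%). Alg2, a mannosyltransferase of that chain, averaged 19.0 ± 0.52 RPKM in cholesterol 48 h and 10.2 ± 0.387 in control 48 h (SD, n = 3 and 2), a log2 fold change of 0.83 (adjusted p = 2.97e-06, limma). It was also the gene higher at 24 h (0.30, adjusted p = 0.0133, limma). Alg12, a later mannosyltransferase, rose by 0.61 and Dpagt1, which starts the chain, by 0.43. Of 19 other SRP and translocon genes, 2 rose, namely Srprb (0.42), the membrane partner of Srpr, and Emc4 (0.37), of the ER membrane complex. Emc8, of the same complex, fell at both times (-0.24 at 24 h and -0.36 at 48 h). None of 6 other oligosaccharyltransferase genes passed the test at either time, nor did any at an unadjusted p under 0.05 by limma. Of 13 other COPII genes, 4 rose, with Uso1 (0.48), a vesicle tether, Mia3 (0.33), which loads collagen, and Bet1 (0.32), a fusion protein, the largest. Of 19 other COPI and Golgi return genes, 2 rose, namely Arfgap3 (0.33) and Nbas (0.23). Of 17 other cargo receptors, Mcfd2 rose (0.42) and Ergic2 fell by 0.19 on the log2 scale.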

How the data were processed

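RNA values are RPKM as deposited by the authors. They aligned reads with STAR to mm10, then used HOMER to count tags in RefSeq gene bodies, with at most 1 tag per position. Tool versions are not given in the sources used here. The headers call the columns FPKM. H3K27ac reads were aligned with Bowtie2 and regions called against input with HOMER by the authors, and the normalized tag counts (a signal), fold ratio over input (at least 4) and p-value are as deposited. Neither the caller's score nor its p-value was used here beyond the authors' own thresholds. From each gene's RPKM, whole tags were recovered (100% within 0.25 of a whole tag), which gave library totals. The transcript row with the highest mean was kept per gene, rescaled by median of ratios (factors 0.904 to 1.06), and genes with more than 70 tags in at least 1 library were tested.

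Tests used limma 3.58.1 in R 4.3.3 with trend, 1 mean per group over 14 libraries, a pseudocount of 1 and Benjamini-Hochberg adjustment. The study's own differential test was on counts, and was not repeated on these values. The script was tested on simulated data. The authors describe the replicates as biological. Exonic lengths came from RefSeq GRCm38.p6. The genes and lists were chosen with earlier results of these data known. By rule, values in every library were to be given for genes called with cholesterol and for paralogues. In the text these are the 24 h and 48 h libraries, with control 0 h for Spcs3 only. Other genes were named with their change, and of each further list up to 3 called genes were named. Alternatives changed 1 choice at a time: the pseudocount, filters, scaling, transcript rows, the fit, weights, the replicate block and each library left out. The correction for 1 tag per position was an exception, as it also replaced gene body by exonic length. Counts in H3K27ac lists were compared without a test. Protein sequences were not used here.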

Additional observations from a re-analysis of the deposited data

Results flagged for a closer look

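The cholesterol effect differed between 48 h and 24 h in 3 of the 44 genes (limma, contrast of both effects, adjusted over all genes tested). The log2 fold change at 48 h exceeded that at 24 h by 0.48 in Spcs3 (adjusted p = 0.0145, limma), by 0.37 in Spcs2 (adjusted p = 0.0107, limma) and by 0.30 in Sec23b (adjusted p = 0.0251, limma). In each of the 3 genes all cholesterol libraries at 48 h lay above both control libraries. The 24 h libraries were deeper than the 48 h libraries in both groups. With tags corrected for 1 tag per position, the differences were 0.52, 0.45 and 0.37. That setting also counted tags per kilobase of exon, which makes the added 1 weigh less. The part of the correction apart from that of the scale was not tested.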

How the results depend on the processing

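Of the counts of genes higher with cholesterol at 48 h (9), the value was 16 on RPKM as deposited, 4 with only the groups compared and 18 with array weights, and 3 to 14 with 1 library left out, while 0 to 1 were lower. Over all genes tested, 1424 were higher, and 1513, 649 and 1739 under the same 3 settings. At 24 h, array weights gave 3 higher and 1 lower, and fitting only the groups compared 1 lower, while over all genes tested array weights gave 1412 higher and 1552 lower, and only the groups compared 1242 lower. The count with a larger effect at 48 h than at 24 h (3) was 11 with array weights. It was 5 with tags corrected for 1 tag per position, and 1 to 5 with 1 library left out. Over all genes tested, that count was 298, and 728 with array weights and 346 with tags corrected. In control medium, 24 h against 0 h, array weights gave 2 higher, and the 4 lower genes were 1 with more than 10 tags, 1 with no filter, 1 at a mean RPKM of at least 1, 1 with only the groups compared, 2 without trend, 29 with array weights, 8 with voom weights, and 1 to 23 with 1 library left out. For 48 h against 0 h, the 5 higher genes were 2 with no filter, 1 with only the groups compared, 15 with array weights, and 1 to 15 with 1 library left out, and the 1 lower gene was 0 with only the groups compared, 2 with array weights and 0 to 1 with 1 library left out. Over all genes tested, 537 were higher and 523 lower at 24 h in control medium, against 3085 and 3485 with array weights. At 48 h in control medium, 841 were higher and 967 lower, against 1993 and 2006 with array weights. Fitting only the groups compared gave 302 lower at 24 h and 387 higher at 48 h. In cholesterol-loaded cells, 48 h against 24 h, 22 to 38 of the 44 genes were higher with 1 library left out. With at least 8 times the input, H3K27ac regions lay at 26 genes in control 24 h, 18 in cholesterol 48 h and 19 in control 48 h. The cause of these shifts was not tested. No called value changed sign, but among genes not called the sign changed in some setting for 16 of 44 at 24 h and 13 of 35 at 48 h.

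With the replicate block, 9 genes were higher at 48 h and 2 had a larger effect at 48 h, and in control medium 2 were lower at 24 h and 3 higher at 48 h. Sec11a at 48 h (0.19, adjusted p = 0.054, limma) and the difference of Sec23b (0.29, adjusted p = 0.055, limma) lost their calls, and Sec24a was called higher at 48 h. Replicate numbers did not pair the libraries, as only 2 of 26 same-number pairs had correlated deviations over 0.1 (range -0.324 to 0.218).

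The 2 control libraries at 48 h, the loss of tags of abundant genes in deep libraries, the different depth at 24 h and 48 h, and 1 H3K27ac library per condition limit these results.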
